A study of Arabidopsis thaliana with 12 samples.

Results

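The genes described here encode proteins of the lipid transfer protein superfamily of Arabidopsis thaliana, a family that also holds the hybrid proline-rich proteins. A list of 60 locus codes defined the set, and a gene entered when a probe set of the array was paired with it and with no other gene. This left 38 genes among the 16548 of the series that have a probe set of their own. The other 22 loci, among them AZI1, EARLI1, AIR1, DIR1, LTPG1, LTP3 and LTP4, were not analysed here. None of the 38 measured genes has a symbol other than its locus code in the gene table.

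Total RNA came from seedlings that carry CLE2, the gene of a small secreted signalling peptide, under an estradiol-inducible system. Seedlings 7 days old, grown at 22 °C, had their roots treated for 24 h with β-estradiol, at 5 mM according to the labels, or with DMSO. The protocol text of every sample, DMSO samples included, describes only the estradiol treatment, and the DMSO groups rest on the sample titles and treatment labels. Root and shoot tissue was then harvested apart. The 12 arrays form 4 groups of 3, namely estradiol roots, DMSO roots, estradiol shoots and DMSO shoots, and the plants of all 4 groups carry the inducible gene. No plants without it received estradiol, so an estradiol difference holds the effects of the compound and of CLE2 induction together. The labels do not say whether the plants are a single transgenic line, which promoter drives the estradiol receptor, or whether replicates are separate cultures. P-values here cover the spread among these arrays alone, and that spread may be technical. CLE2 itself was not analysed here, so the labels were not checked by it.

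Lipid transfer proteins are small secreted proteins in which a conserved set of cysteines holds together a hydrophobic cavity that binds fatty acids and other lipids. They are best known in plants for carrying wax and cutin lipids to the surface of shoots and for their part in lipid barriers of roots and in defence. In the GPI-anchored members a lipid tail fixes the protein to the outer face of the plasma membrane, and LTPG1 of this class takes part in wax export. Hybrid proline-rich proteins join a proline-rich stretch, of the kind found in cell wall proteins, to a lipid transfer domain. DIR1 and AZI1 are known for their role in systemic acquired resistance, the spread of pathogen resistance from an infected leaf to the rest of the plant.

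The 38 genes were sorted by hand into 5 classes from general knowledge of the family, since the files give none. There were 15 measured genes of 21 loci in the hybrid proline-rich and EARLI1-like class, 3 of 8 in the classical type 1 class, 8 of 17 in the GPI-anchored and xylogen-like class, 4 of 5 in the type 2 class, and 8 of 9 in a mixed class of DIR1 relatives and other short secreted proteins. Values are log2 signals, so a difference of 1 is a 2-fold change. A gene is called where limma's Benjamini-Hochberg adjusted p over all 16548 genes was under 0.05. Different probe sets respond differently to the same amount of RNA, so levels are compared here within a gene. The tenth percentile of all gene means serves only as a rough mark of a low signal.

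The organ labels were checked with marker genes. All 8 measured photosynthesis genes were lower in roots under DMSO and all 4 measured root hair and lateral root genes were higher, with medians of -2.86 and 3.14 on the log2 scale. Among 24 genes outside the set that were at least 5 log2 units higher in shoots, the median signal on DMSO root replicate 3 was 4.53, against 3.51 to 3.76 on the other 5 root arrays. Their summed signal was also highest on that array, at 9.53 beside 8.43 to 9.43 on the other root arrays. The photosynthesis genes summed to 11.30 on it, within the range of 11.12 to 11.73 over the root arrays. Values without that array are given below for the organ counts and for the shoot-high genes AT5G48490 and AT3G22142. The shoot-high genes AT2G10940, AT2G45180 and AT1G62510 moved less under DMSO. Without the array they were at -4.84, -3.28 and -2.91, beside -4.77, -3.30 and -2.81 with it. Because whole organs were extracted, fewer cells of a type and less RNA per cell cannot be told apart.

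Organ was the main division within the family. Of the 38 genes, 18 were higher and 11 were lower in DMSO roots than in DMSO shoots (limma, adjusted p under 0.05), which is 47.4% and 28.9% of them. Over all genes tested, 26.6% were higher and 25.8% lower in this comparison. At least a 2-fold difference was found for 17 of the 18 genes and 9 of the 11, which is 44.7% and 23.7% of the 38. Over all genes tested, 11.7% and 10.1% were called with such a difference. That is 1936 of the 4408 genes called higher and 1674 of the 4277 called lower. The individual differences ran from -6.33 to 6.41 with a median of 0.00, beside a median of -0.09 for all genes.

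The estradiol arrays share no sample with the DMSO arrays, but both comparisons use the variance estimate of a single fit over all arrays. On the estradiol arrays, 18 genes were higher in roots (26.5% of all genes) and 10 lower (26% of all genes). The genes higher in roots were the same in 17 cases, which is 94.4% of the calls in each treatment. The 10 lower in roots were 90.9% of the 11 found under DMSO. This overlap was not set beside that of all genes, so nothing about the family is read from it. AT4G33355 was called higher under DMSO alone. AT2G37870 was called in both treatments but in opposite directions, as described below. The change of its organ difference between the treatments did not pass the threshold (limma, adjusted p = 0.463). A difference between the treatments is thus not shown for AT2G37870 after adjustment. Without DMSO root replicate 3, 17 genes were higher and 10 lower under DMSO.

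**Figure D1:**
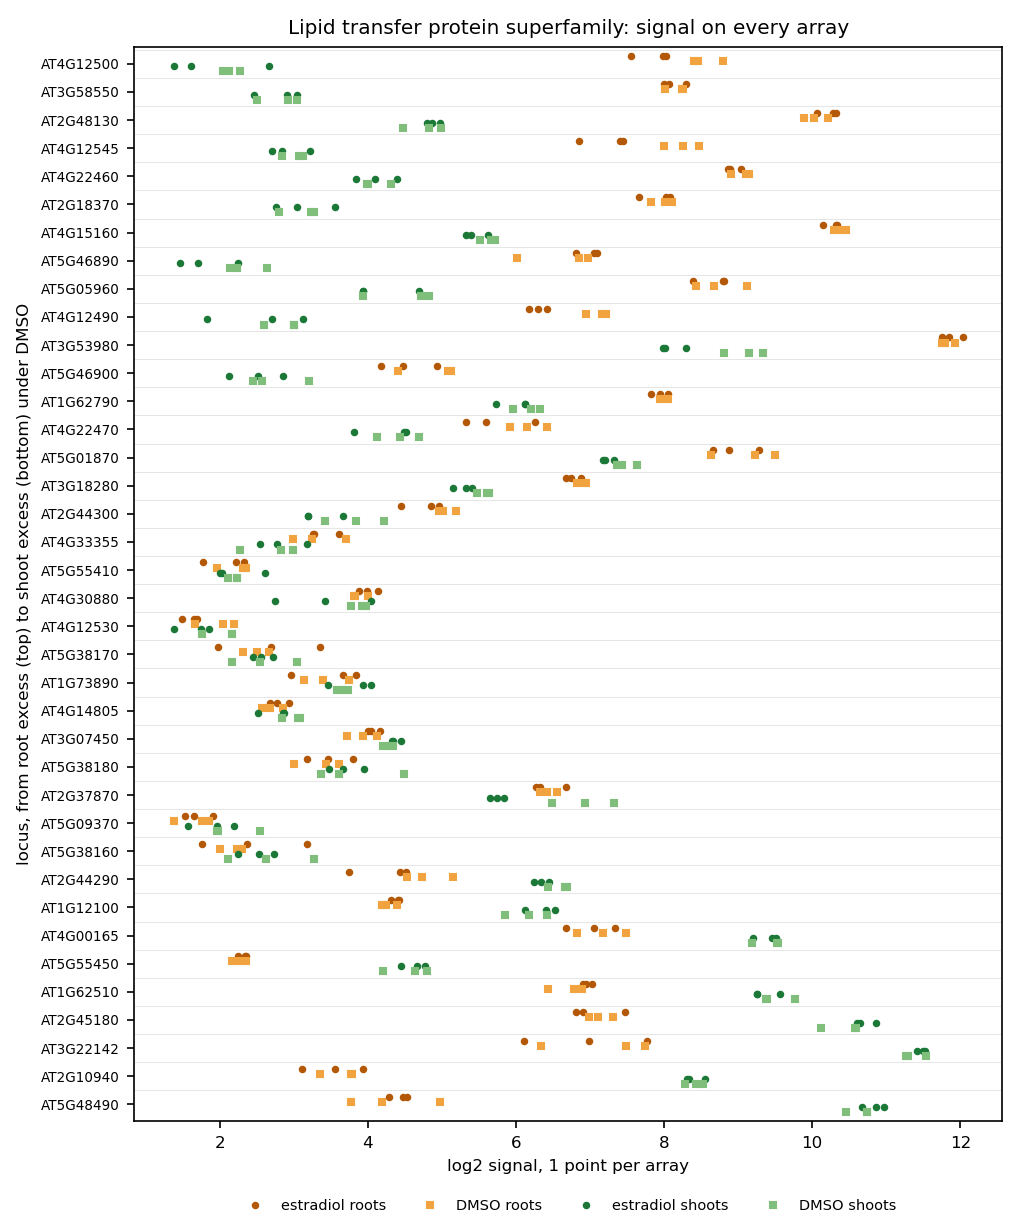
Log2 signal (horizontal axis) of the 38 genes (rows) on each of the 12 arrays, 1 point per array, with estradiol roots, DMSO roots, estradiol shoots and DMSO shoots in separate colours. Rows run from the gene with the largest root excess under DMSO (AT4G12500, 6.41) at the top to that with the largest shoot excess (AT5G48490, -6.33) at the bottom; at both ends the root and shoot points lie far apart.

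The hybrid proline-rich and EARLI1-like class was divided between the organs. Under DMSO 8 of its 15 genes were higher in roots and 6 were lower, with the same counts on the estradiol arrays. The largest root excess of the whole set was that of AT4G12500, with a difference of 6.41 ± 0.28 (SE; limma, adjusted p = 4.48e-09). Its signal was 7.99, 8.02 and 7.55 in estradiol roots and 8.46, 8.80 and 8.41 in DMSO roots, against 1.61, 2.66 and 1.38 in estradiol shoots and 2.28, 2.05 and 2.12 in DMSO shoots. All 6 root arrays lay far above all 6 shoot arrays. The shoot means of 1.88 and 2.15 lie under 2.48, the tenth percentile of all gene means, and the files hold no detection call. With 16 added to the linear value, which damps such low signals, the difference was 4.26.

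AT4G12545 read 7.40, 7.45 and 6.85 in estradiol roots and 8.0, 8.47 and 8.26 in DMSO roots, against 2.84, 3.22 and 2.71 in estradiol shoots and 3.12, 2.84 and 3.07 in DMSO shoots. Its difference between DMSO roots and DMSO shoots was 5.24 ± 0.19. AT4G22460 read 8.86, 9.04 and 8.89 in estradiol roots and 8.91, 9.14 and 9.10 in DMSO roots, against 4.40, 3.84 and 4.10 in estradiol shoots and 3.99, 4.0 and 4.31 in DMSO shoots, a difference under DMSO of 4.95 ± 0.15. These root and shoot groups did not overlap. AT4G15160 was the member with the smallest adjusted p of the organ comparison (limma, 8.5e-11). It read between 10.14 and 10.33 in estradiol roots and between 10.30 and 10.46 in DMSO roots, against 5.33 to 5.62 in estradiol shoots and 5.52 to 5.72 in DMSO shoots. The 4 other root-high genes of the class were AT5G46890 at 4.27 ± 0.26, AT4G12490 at 4.23 ± 0.26, AT5G46900 at 2.13 ± 0.28 and AT4G22470 at 1.75 ± 0.26 (log2 difference under DMSO, SE).

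On the shoot side of the class, AT2G10940 read 3.11, 3.94 and 3.56 in estradiol roots and 3.36, 3.79 and 3.78 in DMSO roots, against 8.34, 8.31 and 8.55 in estradiol shoots and 8.52, 8.28 and 8.43 in DMSO shoots. The difference under DMSO was -4.77 ± 0.19. AT3G22142 read 6.98, 6.11 and 7.77 in estradiol roots and 7.48, 6.34 and 7.74 in DMSO roots, against 11.50, 11.41 and 11.52 in estradiol shoots and 11.30, 11.27 and 11.54 in DMSO shoots. Its root arrays spread over more than a unit within each treatment, while its shoot arrays stayed close together. The difference under DMSO was -4.18 ± 0.40, and -4.46 without DMSO root replicate 3. AT3G22142 lies next but 1 to CWLP, a gene named for a cell wall-plasma membrane linker protein, in the order of coding genes on chromosome 3. AT2G45180 was at 6.81, 7.47 and 6.90 in estradiol roots and 6.99, 7.31 and 7.11 in DMSO roots, against 10.61, 10.64 and 10.86 in estradiol shoots and 10.59, 10.12 and 10.58 in DMSO shoots. AT1G62510 was at 7.03, 6.90 and 6.94 in estradiol roots and 6.78, 6.43 and 6.89 in DMSO roots, against 9.56, 9.25 and 9.26 in estradiol shoots and 9.39, 9.77 and 9.38 in DMSO shoots. Differences under DMSO were -3.30 ± 0.19 for AT2G45180, -2.81 ± 0.15 for AT1G62510, -2.26 ± 0.20 for AT4G00165 and -1.87 ± 0.15 for AT1G12100. The class member AT4G12530 read between 1.38 and 2.2 on all 12 arrays and was not called.

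The 3 classical type 1 genes had positive root minus shoot differences. AT2G18370 read 7.66, 8.08 and 8.03 in estradiol roots and 7.83, 8.11 and 8.01 in DMSO roots, against 2.76, 3.05 and 3.56 in estradiol shoots and 2.80, 3.23 and 3.28 in DMSO shoots. That is a difference of 4.88 ± 0.20 under DMSO (limma, adjusted p = 3.74e-09). AT5G01870 had signal in each organ, at 8.87, 8.66 and 9.28 in estradiol roots and 9.50, 8.63 and 9.23 in DMSO roots, against 7.32, 7.17 and 7.20 in estradiol shoots and 7.43, 7.37 and 7.64 in DMSO shoots, and its difference under DMSO was 1.64 ± 0.21. AT4G33355 was called under DMSO at 0.62 ± 0.23 (limma, adjusted p = 0.0459) and missed the threshold under estradiol at 0.55 ± 0.23 (limma, adjusted p = 0.0707). These values do not show that the treatments differ for AT4G33355.

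Of the 8 GPI-anchored and xylogen-like genes, 4 were higher in roots and 1 was lower, in each treatment. AT3G58550 read 8.0, 8.06 and 8.30 in estradiol roots and 8.01, 8.25 and 8.24 in DMSO roots, against 3.05, 2.46 and 2.91 in estradiol shoots and 3.05, 2.51 and 2.92 in DMSO shoots. Its differences were 5.31 ± 0.18 under estradiol and 5.34 ± 0.18 under DMSO. AT2G48130 read 10.32, 10.28 and 10.06 in estradiol roots and 9.89, 10.22 and 10.02 in DMSO roots, against 4.87, 4.98 and 4.8 in estradiol shoots and 4.48, 4.99 and 4.82 in DMSO shoots, with differences of 5.33 ± 0.14 under estradiol and 5.28 ± 0.14 under DMSO. For AT3G58550 and AT2G48130 the root level stood about 5 log2 units above the shoot level in each treatment. AT1G62790 was higher in roots by 1.83 ± 0.13 and AT2G44300 by 1.23 ± 0.21 under DMSO. AT2G44290, the immediate neighbour of AT2G44300, was the gene lower in roots. The remaining members AT5G09370, AT4G14805 and AT1G73890 had differences of -0.49, -0.29 and -0.22 under DMSO and were not called.

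Among the 4 type 2 genes only AT3G18280 was called, at 1.32 ± 0.10 under DMSO (limma, adjusted p = 3.68e-07). It read 6.75, 6.68 and 6.88 in estradiol roots and 6.95, 6.92 and 6.83 in DMSO roots, against 5.41, 5.15 and 5.33 in estradiol shoots and 5.61, 5.47 and 5.64 in DMSO shoots. The row of neighbours AT5G38160, AT5G38170 and AT5G38180 on chromosome 5 had differences between -0.49 and -0.10 under DMSO, with standard errors of 0.28 to 0.34. Their signals were between 1.76 and 4.49 over the 12 arrays, and AT5G38160 had a mean under the tenth percentile of all genes. AT4G12530, AT5G09370 and AT5G55410 were the other 3 members at such a low mean.

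The mixed class of DIR1 relatives and other short proteins held the largest shoot excess. AT5G48490, which adjoins DIR1 on chromosome 5, read 4.47, 4.28 and 4.53 in estradiol roots and 3.78, 4.19 and 4.97 in DMSO roots, against 10.86, 10.67 and 10.97 in estradiol shoots and 10.74, 10.45 and 10.74 in DMSO shoots. The difference was -6.41 ± 0.24 under estradiol and -6.33 ± 0.24 under DMSO. DMSO root replicate 3 was the highest root array for AT5G48490, and without it the DMSO difference was -6.65. AT5G55450 was also lower in roots, at 2.16 to 2.36 over the 6 root arrays, against 4.21 to 4.8 over the 6 shoot arrays. AT3G07450 was called lower in roots at -0.35 ± 0.11 under DMSO (limma, adjusted p = 0.0189).

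In the same class AT5G05960 read 8.39, 8.80 and 8.81 in estradiol roots and 8.43, 9.12 and 8.68 in DMSO roots, against 3.94, 3.93 and 4.69 in estradiol shoots and 3.93, 4.72 and 4.83 in DMSO shoots. AT3G53980 read 11.75, 11.85 and 12.03 in estradiol roots and 11.75, 11.79 and 11.93 in DMSO roots, against 7.98, 8.29 and 8.01 in estradiol shoots and 8.81, 9.34 and 9.15 in DMSO shoots. Its root excess was 3.78 ± 0.14 under estradiol and 2.73 ± 0.14 under DMSO. AT5G55410 and AT4G30880 had differences of 0.02 and -0.02 under DMSO and were not called.

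**Figure D2:**
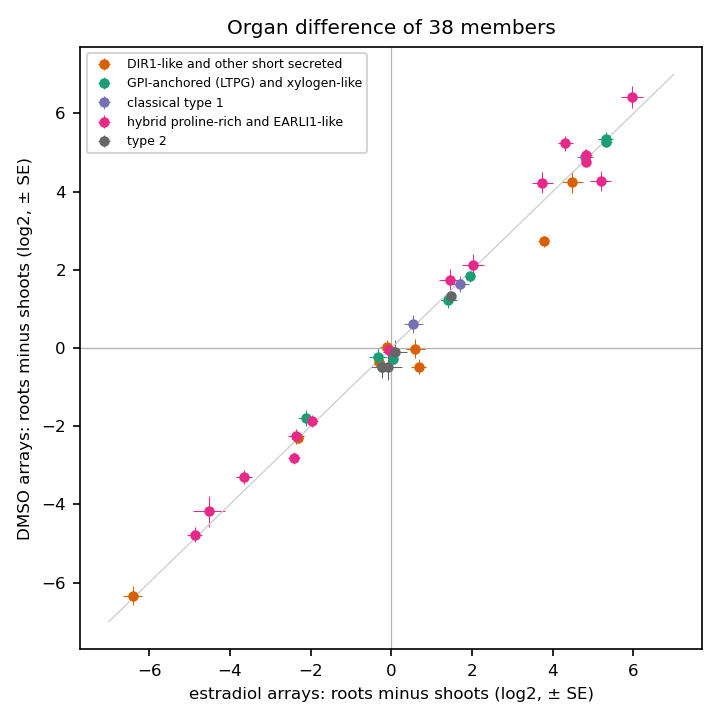
Root minus shoot difference in log2 signal on the estradiol arrays (horizontal axis) and on the DMSO arrays (vertical axis) for the 38 genes, coloured by class, with limma's standard errors and the line of equal differences. Most genes lie along the line from -6.41 to 5.97. The short-protein gene AT3G53980 lies below it, at 3.78 and 2.73, as do AT2G37870 at 0.68 and -0.48 and AT5G46890 at 5.19 and 4.27. AT4G12545 lies above it, at 4.31 and 5.24.

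Several members are neighbours on a chromosome, and their organ patterns were set side by side. AT2G44290 read 4.52, 4.43 and 3.75 in estradiol roots and 4.53, 4.73 and 5.15 in DMSO roots, against 6.34, 6.45 and 6.24 in estradiol shoots and 6.43, 6.69 and 6.66 in DMSO shoots. AT2G44300 read 4.85, 4.45 and 4.96 in estradiol roots and 4.96, 5.01 and 5.19 in DMSO roots, against 3.19, 3.66 and 3.19 in estradiol shoots and 3.42, 4.22 and 3.84 in DMSO shoots. These adjoining genes on chromosome 2 thus differed between the organs in opposite directions, by -1.79 ± 0.21 for AT2G44290 (limma, adjusted p = 1.79e-05) and 1.23 ± 0.21 for AT2G44300 (limma, adjusted p = 0.000401) under DMSO. On the estradiol arrays the values were -2.11 ± 0.21 and 1.41 ± 0.21.

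The adjoining genes AT5G46890 and AT5G46900 on chromosome 5 were each higher in roots. AT5G46890 read 7.06, 7.10 and 6.81 in estradiol roots and 6.02, 6.97 and 6.85 in DMSO roots, against 2.25, 1.46 and 1.71 in estradiol shoots and 2.64, 2.24 and 2.14 in DMSO shoots. AT5G46900 read 4.18, 4.94 and 4.47 in estradiol roots and 5.08, 5.13 and 4.41 in DMSO roots, against 2.52, 2.13 and 2.86 in estradiol shoots and 2.57, 3.21 and 2.45 in DMSO shoots. On chromosome 4, AT4G22460 and AT4G22470, with 2 coding genes between them, were likewise each higher in roots. Binding of a neighbour's RNA to a probe set, which near-identical copies allow, was not tested. Both probe sets of AT4G12510 are also paired with AT4G12520 and were left out for that reason.

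**Figure D3:**
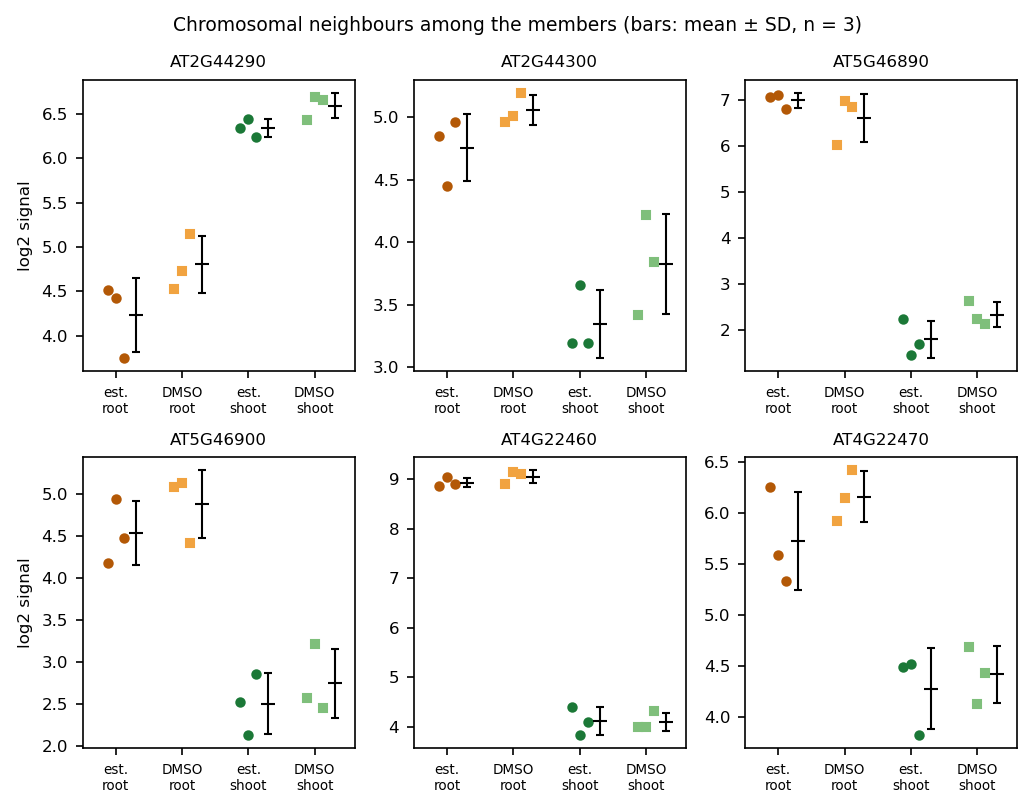
Log2 signal of 3 neighbouring gene pairs in estradiol roots, DMSO roots, estradiol shoots and DMSO shoots, with 1 point per array and the mean ± SD (n = 3) beside the points; each panel has its own vertical axis. AT2G44290 is lower and AT2G44300 higher in roots than in shoots, while both genes of each other pair are higher in roots.

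With estradiol on the roots, 2 of the 38 genes fell in the shoots and 0 rose (limma, adjusted p under 0.05). Over all genes tested, 0.0302% were called lower and 0.133% higher. Both genes changed at least 2-fold, as did 0.0121% of all genes in the downward and 0.0544% in the upward direction. The falls of these genes, AT3G53980 and AT2G37870, were already known when the set was drawn up, so nothing about the family is read from this count. Both belong to the mixed class of short secreted proteins.

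AT2G37870 read 5.75, 5.65 and 5.84 in estradiol shoots, against 6.49, 7.32 and 6.93 in DMSO shoots, a difference of -1.17 ± 0.19 (SE; limma, adjusted p = 0.0454). The 3 estradiol shoot arrays lay close together and below every DMSO shoot array, which were spread over a wider range. In roots the same gene read 6.27, 6.68 and 6.33 with estradiol and 6.42, 6.56 and 6.33 with DMSO, a difference of -0.01 with a 95% interval from -0.42 to 0.40. The estradiol shoots were thus the lowest of the 4 groups for AT2G37870. Its root minus shoot difference was 0.68 ± 0.19 on the estradiol arrays (limma, adjusted p = 0.00897) and -0.48 ± 0.19 on the DMSO arrays (limma, adjusted p = 0.049), where the root and shoot arrays overlapped.

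AT3G53980 fell in shoots by 1.0 on the log2 scale, with a standard error of 0.14 (limma, adjusted p = 0.0338), and every estradiol shoot array lay below every DMSO shoot array. In roots, where its signal was near 12 on every array, the estradiol difference was 0.05 with a 95% interval from -0.26 to 0.37. Since AT3G53980 is much higher in roots than in shoots, the level of root-enriched genes on the shoot arrays is given beside it. For 87 genes outside the set that were at least 5 log2 units higher in roots, the median signal was 3.64, 3.58 and 3.72 on the estradiol shoot arrays and 3.59, 3.61 and 3.57 on the DMSO shoot arrays, and their summed signal was 10.26 to 10.33 and 10.19 to 10.29 (log2). The 4 root hair and lateral root markers summed to 5.67 to 6.23 on the estradiol shoot arrays and 5.78 to 6.0 on the DMSO shoot arrays, with no marker listed at 0. The part of root-enriched RNA in the AT3G53980 difference was not tested.

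These calls depended on the arrays fitted together. Neither gene was called by limma when the roots were left out of the fit, at an adjusted p of 0.349 for AT3G53980 and 0.369 for AT2G37870. When each of the 12 arrays was left out in turn, AT2G37870 was called only without DMSO shoot replicate 1, and otherwise had an adjusted p between 0.0586 and 0.142. AT3G53980 was called without DMSO root replicate 1, estradiol shoot replicate 2 or DMSO shoot replicate 1, and had an adjusted p between 0.0509 and 0.123 without any other array. The log2 differences stayed between -1.38 and -0.97 for AT2G37870 and between -1.14 and -0.88 for AT3G53980 in these fits.

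**Figure D4:**
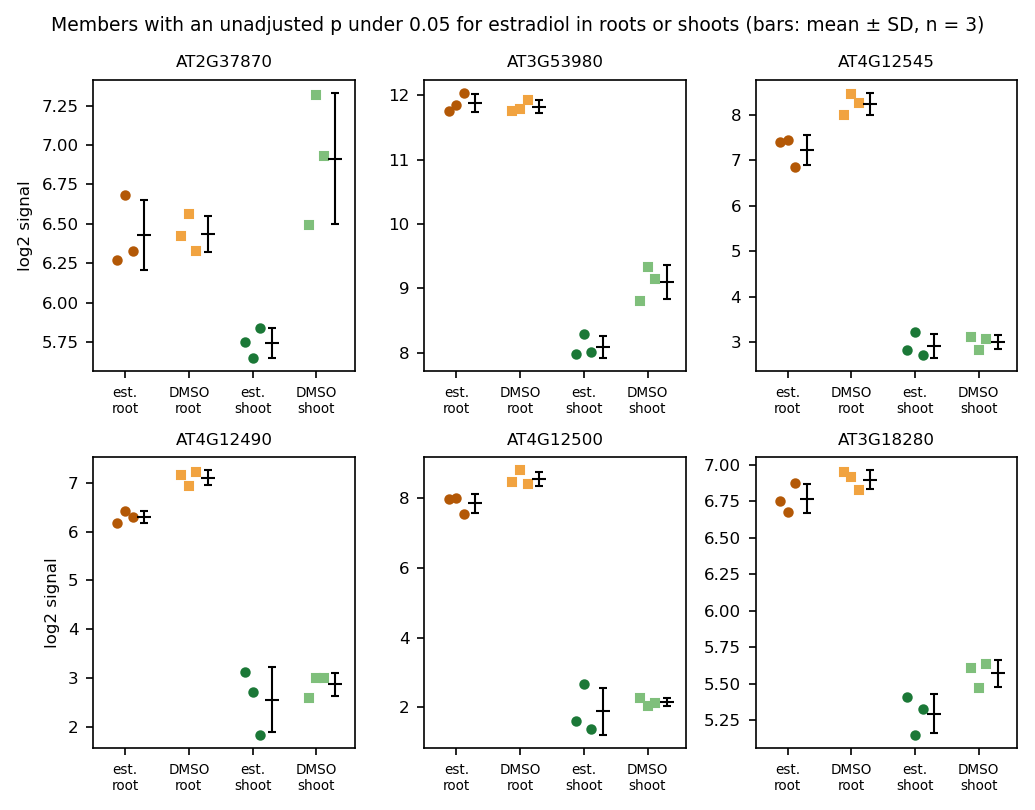
Log2 signal of 6 of the 8 genes with an unadjusted p under 0.05 for estradiol in either organ (AT2G44290 and AT2G44300 are in the plot of neighbours), in estradiol roots, DMSO roots, estradiol shoots and DMSO shoots, with 1 point per array and the mean ± SD (n = 3) beside the points; each panel has its own vertical axis. For AT2G37870 and AT3G53980 the estradiol shoot arrays lie below the DMSO shoot arrays, and for AT4G12545, AT4G12490 and AT4G12500 the estradiol root arrays lie below the DMSO root arrays.

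The remaining 36 genes gave no call in shoots. AT3G18280, of the type 2 class, had a difference of -0.28 ± 0.10 (limma, adjusted p = 0.379), and AT2G44300 had -0.48 ± 0.21 (limma, adjusted p = 0.484). For AT3G18280 all 3 estradiol shoot arrays were below all 3 DMSO shoot arrays, while for AT2G44300 the groups overlapped. The next smallest p-values belonged to AT4G12530 at -0.37 ± 0.17, AT5G46890 at -0.53 ± 0.26, AT4G30880 at -0.49 ± 0.24, AT4G14805 at -0.24 ± 0.13, AT4G15160 at -0.18 ± 0.10 and AT2G45180 at 0.27 ± 0.19. The value of AT4G30880 rested on estradiol shoot replicate 1, which read 2.75 beside 3.42 and 4.04 on the other estradiol shoot arrays, and was -0.17 without it and -0.81 without estradiol shoot replicate 3. Without estradiol shoot replicate 2, AT4G12530 was at -0.23 and AT4G14805 at -0.13. Without DMSO shoot replicate 2, AT2G44300 was at -0.28 and AT2G45180 at 0.12. AT4G15160 was at -0.27 without estradiol shoot replicate 3. AT5G46890, with shoot signals as low as 1.46 to 2.64, ranged from -0.76 to -0.11 over all alternatives run.

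In all, 5 of the 38 genes had shoot groups that did not overlap, AT3G53980, AT2G37870, AT3G18280 and AT5G01870 lower and AT2G45180 higher. That is 13.2% of them, and 13.2% of all genes tested had such groups in this comparison, 6.38% lower and 6.85% higher with estradiol. An unadjusted p under 0.05 was found for 4 of 38 (10.5%), beside 9.95% of all genes. The 13.2% and the 10.5% are thus near the shares of all genes. The median difference over the 38 genes was -0.15, with 26 of 38 below 0 (68.4%), beside a median of 0.00 and 50.8% below 0 over all genes. The 26 include AT3G53980 and AT2G37870, whose falls were already known, and chromosomal neighbours counted as separate genes. By class the medians were -0.14 for the hybrid proline-rich genes, 0.02 for the classical type 1 genes, -0.21 for the GPI-anchored genes, -0.14 for the type 2 genes and -0.14 for the mixed short proteins.

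In roots, 0 of the 38 genes were called for estradiol against DMSO, and 0% of all genes tested (limma, smallest adjusted p among the members 0.590). An unadjusted p under 0.05 was found for 4 of the 38, or 10.5%, where all genes gave 5.17%. These were AT4G12545, AT4G12490, AT4G12500 and AT2G44290, each with the lower signal in estradiol roots. The root difference of AT4G12545 was already known when the set was drawn up.

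AT4G12545, AT4G12490 and AT4G12500 come from a cluster of lipid transfer domain genes on chromosome 4 that also holds AZI1, EARLI1 and AIR1. AT4G12490 read 6.17, 6.42 and 6.30 in estradiol roots, against 7.16, 6.94 and 7.22 in DMSO roots, a difference of -0.81 ± 0.26 (limma, adjusted p = 0.891) with a 95% interval from -1.39 to -0.23. AT4G12500 had a difference of -0.70 ± 0.28 (limma, adjusted p = 0.941) and AT4G12545 one of -1.01 ± 0.19 (limma, adjusted p = 0.590). For each of these 3 genes every estradiol root array lay below every DMSO root array. Binding of a cluster neighbour's RNA to their probe sets was not tested, so the 3 may not be separate observations. The remaining measured gene of the cluster, AT4G12530, has a low signal and was at 1.69, 1.66 and 1.49 in estradiol roots and 2.04, 1.67 and 2.2 in DMSO roots, and the groups overlapped. In shoots, where AT4G12545, AT4G12490 and AT4G12500 had signals between 1.38 and 3.22, their estradiol differences were -0.08, -0.31 and -0.27.

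Root groups did not overlap for 6 of the 38 genes (15.8%), beside 12.3% of all genes, 7.05% lower and 5.28% higher with estradiol. Of the 6, 5 were lower with estradiol, namely the cluster genes AT4G12545, AT4G12490 and AT4G12500 and the neighbours AT2G44290 and AT2G44300, and AT1G62510 was higher. AT2G44290 had a difference of -0.57 ± 0.21, which was -0.32 without estradiol root replicate 3, its lowest root array. AT2G44300 had -0.30 ± 0.21 and AT1G62510 0.26 ± 0.15. The value of 0.38 ± 0.26 for AT5G46890 rested on DMSO root replicate 1 and was 0.08 without it. AT4G22470 was at -0.44 ± 0.26, AT3G18280 at -0.13 ± 0.10 and AT4G12530 at -0.35 ± 0.17. Leaving out single arrays also moved other small root differences. AT2G44300 was at -0.15 and AT3G18280 at -0.08 without estradiol root replicate 2, and AT1G62510 was at 0.12 without DMSO root replicate 2. AT4G22470 was at -0.24 without estradiol root replicate 3 and at -0.70 without estradiol root replicate 1.

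Of the 15 hybrid proline-rich and EARLI1-like genes, 12 had a root difference below 0 (80.0%), where 52.0% of all genes did. The median of the class was -0.14, beside -0.01 over all genes. The 12 include AT4G12490, AT4G12500, AT4G12530 and AT4G12545 of the chromosome 4 cluster, the last known beforehand to be lower. The other classes had medians of -0.06 for the classical type 1 genes, -0.01 for the GPI-anchored genes, 0.15 for the type 2 genes and 0.05 for the mixed short proteins. The 8 genes of the last class lay between -0.10 and 0.14 in roots. The photosynthesis markers had a median root difference of -0.01 and the root markers one of 0.04.

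**Figure D5:**
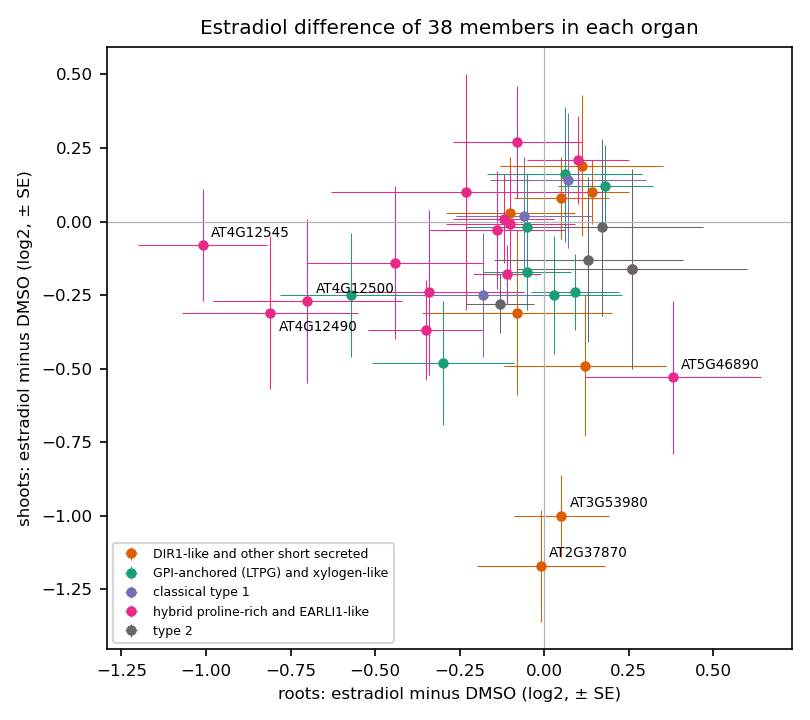
Estradiol minus DMSO difference in log2 signal in roots (horizontal axis) and in shoots (vertical axis) for the 38 genes, coloured by class, with limma's standard errors. AT2G37870 and AT3G53980 lie near 0 in roots and at -1.17 and -1.0 in shoots, and AT4G12545 lies at -1.01 in roots and -0.08 in shoots.

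A direct test asked whether the estradiol difference itself differed between the organs. For 0 of the 38 genes, and 0% of all genes, did it pass the threshold (limma, smallest adjusted p among the members 0.463), and 4 of 38 (10.5%) had an unadjusted p under 0.05, beside 5.41% of all genes. The 4 genes were AT3G53980 with a root minus shoot difference of effects of 1.05 ± 0.20, AT2G37870 with 1.16 ± 0.26, AT4G12545 with -0.93 ± 0.27 and AT5G46890 with 0.91 ± 0.37. For AT5G46890 the shoot means were 1.81 with estradiol and 2.34 with DMSO, under 2.48, the tenth percentile of all gene means. Its difference of effects ranged from 0.43 to 1.13 over the alternatives run. For AT3G53980 and AT2G37870 the fall in shoots is therefore not shown to differ from the root value after adjustment. The estradiol differences of AT3G53980, AT2G37870 and AT4G12545 were already known when the set was drawn up. Nothing about the family is thus read from the 10.5%.

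Other genes of the lipid barriers were followed from hand-made lists, most of which have no probe set of their own here. Of 30 wax and cutin genes 3 were measured, and all 3 were lower in roots under DMSO. WSD1, a wax ester synthase, differed by -2.03 ± 0.33, and the listed genes AT5G33370 and AT2G04570 by -6.61 ± 0.29 and -3.79 ± 0.14. Of 23 suberin and endodermal barrier genes 2 were measured, and FACT, which attaches caffeic acid to fatty alcohols, was higher in roots by 3.45 ± 0.27. The other, AT2G48080, was higher by 3.72 ± 0.26, but its role is not annotated in the sources used here and its place on the list is not firm. For estradiol, 0 of these 5 genes were called in shoots (limma, smallest adjusted p 0.622) or in roots (0 of 5, each at an adjusted p of 1), and 0 had an unadjusted p under 0.05 in either organ. Of 15 systemic acquired resistance genes, 0 have a probe set of their own.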

How the data were processed

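Total RNA of 12 samples was measured on single-colour Affymetrix arrays, 1 per sample, and groups came from the sample titles. The values deposited by the authors are log2 signals between 0.339 and 14.126 with none missing. Per the submitters' processing notes, Affymetrix Expression Console 1.3 was used. How signals were summarized, background-corrected and normalized is not given in the sources used here. GEO's platform annotation pairs 16722 probe sets with 1 gene each, which were used, and the 759 with several genes and 20927 with none were left out. Names and neighbours were looked up in RefSeq's table for TAIR10.1, where 16505 of the 16548 genes were found. No coordinates or sequences were used. Each member has a single probe set of its own.

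Tests used limma 3.58.1 in R 4.3.3 (lmFit and eBayes, group means of all 12 arrays, 8 residual degrees of freedom, no filter), with Benjamini-Hochberg adjustment over all genes. The number of arrays limits the precision, and the median SD within groups was 0.208 to 0.236 for the members, against 0.135 to 0.168 for all genes. The fit was also run on simulated data of 16548 genes with independent noise. In each organ 50 genes were changed by each of 0.6, 1, 1.5 and 2 log2 units. The fit recovered 34% of genes changed by 0.6 log2 units in roots and 54% in shoots. It recovered 70% and 82% of those changed by 1 unit, with 7 and 10 unchanged genes called. Adjusted p-values depend on how many genes change, and the real root comparison called 0. These shares are therefore not the power for the members.

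Members and lists were chosen with earlier results of these data known. Named in full were members called for estradiol, the 10 smallest p per organ, the 5 largest organ differences in each direction, and their neighbours. A part of that rule on the highest levels was not used, because levels of different probe sets are not comparable. Other members with per-array values were added after their values were seen. Alternatives were each organ alone, a replicate block, eBayes settings, array weights, normalizations, a filter on dim genes, an added constant, all probe sets, a 2-fold threshold and each array left out.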

Additional observations from a re-analysis of the deposited data

How the results depend on the processing

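The counts of members called for estradiol in roots (0), for the difference between organs (0) and for organ under DMSO and under estradiol stayed within 1.5 times their value in every alternative run; the organ counts were 26 to 30, except 20 of the 20 members left by the filter on dim genes. The count of 2 in shoots stayed at 2 with trend and robust eBayes settings, quantile normalization, subtraction of array medians, the dim-gene filter, an added 16 and a 2-fold threshold. It was 0 with each organ fitted apart, and 1 with a replicate block, with array weights and with all probe sets, where AT3G53980 was called. Leaving out each array gave 0 to 2. Over all genes the shoot comparison called 27, with 0 called by each organ alone, 7 with array weights, 91 with trend and robust settings, 59 after median subtraction, 84 above the median level, 77 with 16 added and 0 to 19 with an array left out; a 2-fold threshold left 11. Alternatives were run for 44 single-gene values, those named by the rule for named genes, and none of these changed sign; other gene values in the text had none. Same-numbered estradiol and DMSO arrays had residual correlations of 0.054 to 0.078 in roots and 0.027 to 0.137 in shoots. Of these arrays, 6 of 6 in roots and 5 of 6 in shoots were closest to their own number. Same-numbered root and shoot arrays had residual correlations of 0.023 to 0.053 under estradiol and 0.05 to 0.098 under DMSO. Replicates may thus share an effect that the main fit leaves out, also in the organ comparisons. There a replicate block gave 29 members called under DMSO and 30 under estradiol. With a replicate block the adjusted p in shoots was 0.0349 for AT3G53980 and 0.115 for AT2G37870 (limma). Quantile normalization moved the median organ difference of all genes under DMSO to 0.011, against -0.09 as deposited. The files hold no detection calls, so differences that involve signals as low as the shoot values of AT4G12500 are uncertain in size.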
